A study of Mus musculus with 6 samples.

Results

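Microglia were the 406 nuclei, of 28650 in all (1.42%), that the deposited annotation of hippocampal nuclei from PS19 mice calls by that name, and they formed 1 of its 32 clusters. PS19 mice carry a human tau transgene with the P301S mutation, driven by the mouse prion promoter, and develop tau aggregates. All mice were male. Nuclei from the microdissected, frozen hippocampus were profiled with droplet 3′ sequencing in 6 libraries, 1 for each combination of injury, vector and side. They are named in full, and series of 6 values follow this order: sham GFP right, then sham VEGFC right; after TBI, GFP right and GFP left; last, with TBI and VEGFC, the right and then the left side. TBI was a mild controlled cortical impact to the right hemisphere, so the left hippocampus lay opposite the injury. Every mouse, sham or injured, had also received an adeno-associated virus (AAV) that encoded either GFP, as the control, or VEGFC, which drives the growth of lymphatic vessels. The sources used here give no ages, no number of mice behind a library, and no statement on whether left and right hippocampi came from the same mice.

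Microglia are the resident macrophages of the brain parenchyma. They depend on the receptor Csf1r and on TGF-beta for survival and identity, survey the tissue through the purine receptor P2ry12 and the fractalkine receptor Cx3cr1, and clear debris with complement, Fc and phagocytic receptors. In tau and amyloid models part of them lose homeostatic transcripts and take up a disease-associated programme that involves Trem2, Apoe, Lpl, Itgax, Cst7 and Spp1, and brain injury is known to bring out interferon and antigen-presentation genes in them.

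All 4 markers of the class were found in all 6 libraries, at levels close to each other. Inpp5d, a lipid phosphatase that acts below immune receptors (chromosome 1, 87620312 to 87720507, plus strand, mm10), was at 1629, 1472, 1728, 1513, 1689 and 1590.0 UMIs per 1000000 microglial UMIs in the libraries in that order. A UMI is 1 counted RNA molecule, and levels below are on this scale of 3′ tags unless another is named. Cx3cr1 (chromosome 9, 119901616 to 120069879, minus strand) was at 1249.7, 1269, 1493, 1220.5, 1453 and 1349. Csf1r was at 748, 607, 644, 774, 673 and 669.8. P2ry12 (chromosome 3, 59216272 to 59262871, minus strand) was at 666, 534, 691, 636, 744 and 501. No marker separated the GFP from the VEGFC libraries or the sham from the TBI libraries. Of the 406 nuclei, 400 held at least 1 UMI of the 4 markers and 362 held UMIs of at least 2 of them, and each nucleus held at least 1 UMI of the 22 homeostatic genes listed for microglia.

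The markers differed in how far they set microglia apart. Summed over libraries, Inpp5d was at 1608 in microglia and at most 4.30 in any other class, and Csf1r at 686 against at most 8.29. P2ry12 was at 604 against 107 in the class of mixed neurons, and Cx3cr1 at 1343 against 443 in choroid plexus epithelium. With every nucleus thinned to 1000 UMIs, P2ry12 was found in 39.4% of microglia, 0.840% of oligodendrocytes and 9.58% of excitatory neurons (48.0%, 1.06% and 32.9% before thinning, at medians of 1261, 1307 and 4222.5 UMIs). The P2ry12 gene lies within Med12l on the opposite strand, and the annotated Cx3cr1 gene overlaps 5 other coding genes, 3 of them on its own strand. Thinned in the same way, Inpp5d was found in 78.3% of microglia and 0.0442% of oligodendrocytes, and Ptprc, the leukocyte antigen CD45, in 67.7% and 0.177%.

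Expression of microglial genes depends on PU.1, the factor encoded by Spi1, which binds a purine-rich core. Of 178 genes with at least 60 microglial UMIs and a microglial level at least 8-fold that of any other class, 136 had a RefSeq promoter (GRCm38.p6, the assembly behind mm10), in 176 windows of 300 bases. The letters GAGGAAGT, searched on both strands, were in 26 of these windows (14.8%) and in 3.20% of all 32851 promoter windows. The RUNX core TGTGGTTT was in 4.55% against 1.78%, and the C/EBP palindrome TTGCGCAA in 0 of 176 against 0.183%. The genes were chosen by their counts here and promoters of 1 gene overlap, so these shares are a description without a test. The 250 bases before the start of 4 listed genes that held a match are shown from 5′ to 3′ along the gene, with the match in capitals: Inpp5d (chr1:87620062-87620311, plus strand), C1qc, a complement subunit (chr4:136892915-136893164, minus strand), Vav1, an exchange factor below immune receptors (chr17:57278850-57279099, plus strand), and Pik3cg, a phosphoinositide kinase subunit of leukocytes (chr12:32208471-32208720, minus strand). In C1qc and Pik3cg the match is on the other strand and reads ACTTCCTC.
Inpp5d: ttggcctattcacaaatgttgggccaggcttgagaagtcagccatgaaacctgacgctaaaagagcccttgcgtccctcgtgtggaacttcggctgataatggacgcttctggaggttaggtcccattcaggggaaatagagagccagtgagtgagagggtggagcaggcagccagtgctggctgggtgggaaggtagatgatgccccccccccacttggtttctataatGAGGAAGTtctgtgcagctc
C1qc: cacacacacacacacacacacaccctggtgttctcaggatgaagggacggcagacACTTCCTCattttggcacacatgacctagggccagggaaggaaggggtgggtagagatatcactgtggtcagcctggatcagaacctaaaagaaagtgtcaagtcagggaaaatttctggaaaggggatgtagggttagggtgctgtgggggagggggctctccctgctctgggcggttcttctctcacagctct
Vav1: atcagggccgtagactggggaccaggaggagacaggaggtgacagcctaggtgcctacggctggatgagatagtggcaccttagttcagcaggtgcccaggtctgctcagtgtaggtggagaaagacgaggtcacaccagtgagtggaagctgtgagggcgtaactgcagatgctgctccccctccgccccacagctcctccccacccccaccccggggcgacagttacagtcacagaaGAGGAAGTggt
Pik3cg: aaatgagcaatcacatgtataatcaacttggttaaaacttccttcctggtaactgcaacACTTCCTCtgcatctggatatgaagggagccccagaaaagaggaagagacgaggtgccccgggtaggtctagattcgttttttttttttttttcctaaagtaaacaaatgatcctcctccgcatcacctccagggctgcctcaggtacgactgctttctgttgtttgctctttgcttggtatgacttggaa

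The match began 20 bases before the start in Inpp5d and 11 in Vav1, and 195 and 191 before it in C1qc and Pik3cg. For a second annotated start of Pik3cg the same site lies 2 bases before it. By the choice of genes all 4 were highest in microglia, with C1qc at 590.1, Vav1 at 194 and Pik3cg at 134.

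Microglia sat at the edge of both deposited quality limits. The lowest count of any deposited nucleus was 1001 UMIs and the highest doublet score 0.0990. Microglia had a median of 1261 UMIs and 950 genes, and 165 of them (40.6%) had under 1200 UMIs. Of 9 classes they had the lowest median, next to 1307 in oligodendrocytes. A doublet score of 0.08 or more was found in 31.8% of microglia, 36.7% of fibroblasts and 0.265% of oligodendrocytes. By library these shares in microglia were 25.7%, 23.8%, 67.3%, 62.5%, 50.8% and 7.25%, in the order above, so TBI VEGFC left stood apart from the other 5. That library was also deeper: its median in excitatory neurons was 5899 UMIs against 3607 to 4457 in the others. Nuclei outside either limit were not analysed here. Of 91 barcodes found in more than 1 library, 6 belonged to microglia and none to microglia of 2 libraries.

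The microglial share of nuclei differed between libraries. It was 1.72% in sham GFP right (74 nuclei; exact Clopper-Pearson 95% interval 1.35% to 2.15%), 0.700% in sham VEGFC right (42; 0.505% to 0.945%), 0.990% with TBI and GFP on the right (49; 0.733% to 1.31%) and 0.737% on the left (40; 0.527% to 1.00%), 1.47% in TBI VEGFC right (63; 1.13% to 1.88%) and 3.75% in TBI VEGFC left (138; 3.16% to 4.42%). VEGFC against GFP was therefore lower in sham and higher on both sides after TBI, with log2 ratios of -1.29, 0.57 and 2.35, a mean of 0.54, and an exact two-sided sign-flip p of 0.75 over 3 contexts, where 0.25 is the smallest possible. Intervals here cover counting error only, and with 1 library a group the ratio of 2 libraries has no replicate check. Fewer microglia and fewer microglial nuclei passing the limits cannot be told apart in a share of nuclei.

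The share in TBI VEGFC left changed when the libraries were thinned to 1 depth. Thinning each library to the median depth of the shallowest (3607 UMIs in excitatory neurons) and again requiring 1000 UMIs left a mean over 20 draws of 30.6 of its 138 microglia, and 34.5, 42, 24, 33.5 and 42 in the other libraries. The shares then were 0.870%, 0.700%, 0.532%, 0.629%, 1.06% and 1.00%. At this matched depth TBI VEGFC left no longer stood apart: its draws ran from 0.915% to 1.11%, and those of TBI VEGFC right from 1.01% to 1.08%. The log2 ratios of VEGFC to GFP were -0.31, 0.99 and 0.67, with a mean of 0.45 (exact sign-flip p = 0.5). With nuclei of at least 1500 UMIs alone, without thinning, TBI VEGFC left kept the highest share, at 1.59% against 0.144% to 0.454%. In oligodendrocytes, of which 34.8% had under 1200 UMIs, the log2 ratio of VEGFC to GFP in TBI left was 0.97 before thinning, and in microglia 2.35. In the other 7 classes it lay between -0.78 and 0.32 in that pair.

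**Figure D1:**
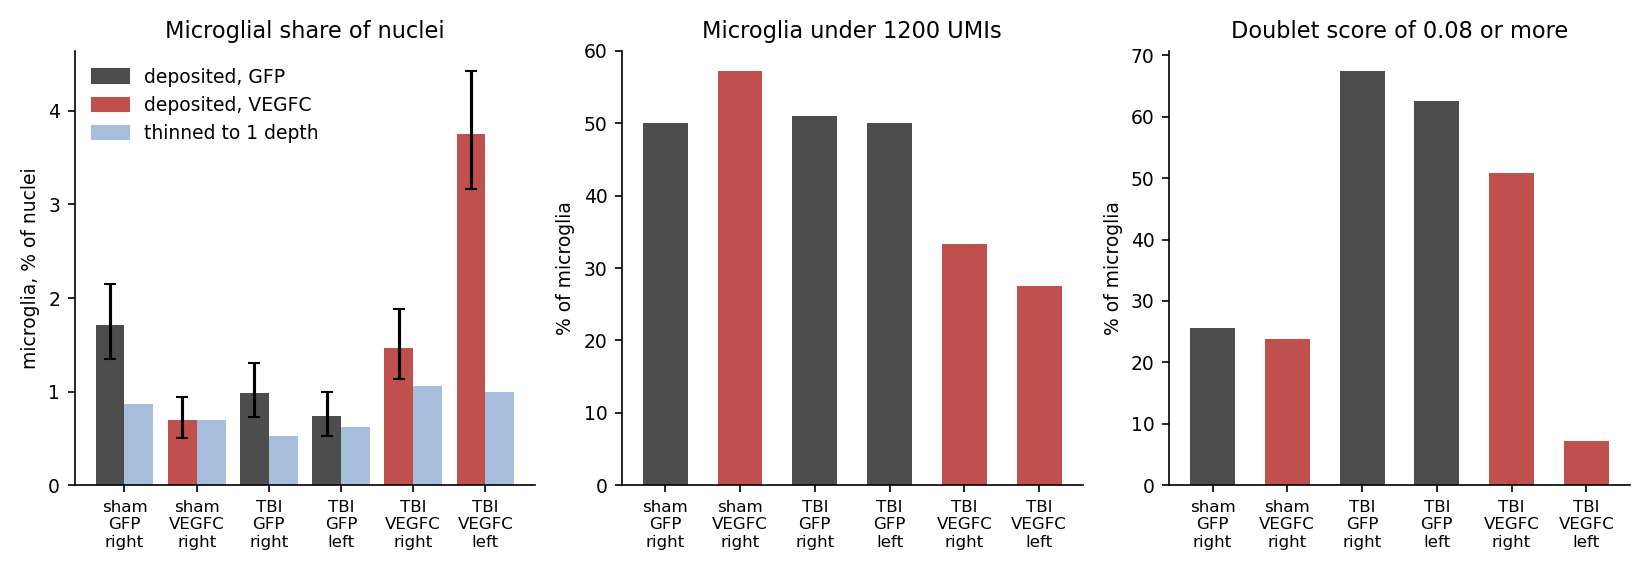
Microglial share of nuclei in each library as deposited (grey GFP, red VEGFC, bars with 95% Clopper-Pearson intervals) and after thinning to 1 depth (blue), with the percentage of microglia under 1200 UMIs and with a doublet score of 0.08 or more. TBI VEGFC left has the highest deposited share, 3.75%, which becomes 1.00% after thinning, and the lowest share of high doublet scores, 7.25%.

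Of the 406 nuclei, 10 carried genes of other cells: at least 300 UMIs of neuronal genes, 10 of border macrophage genes or 10 of T cell genes; they are called marked below. The largest, with 11623 UMIs in TBI VEGFC left, held 406 UMIs of a list of 24 neuronal genes, led by Dlgap1 and Syt1 of the synapse, and 2 UMIs of the 4 microglial markers. The second, with 6860 UMIs in TBI GFP left, held 343, led by Galntl6 and Snhg11. No other microglial nucleus exceeded 24 neuronal UMIs or 3266 UMIs in all, although by share 1 more, in sham GFP right, reached 1.89% and was not marked. The 2 gave 58.6% of all neuronal-list UMIs in microglia. The list took 0.124%, 0.0717%, 0.0864%, 0.674%, 0.0744% and 0.293% of microglial UMIs by library, highest in the 2 left libraries. Without the 10 nuclei it took 0.0704% to 0.124%.

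A further 7 nuclei were marked by genes of border macrophages, the macrophages of meninges, vessels and choroid plexus. They held 15 to 35 UMIs of the list, led by the scavenger receptors Mrc1 and Cd163, the transglutaminase F13a1, Stab1 and Dab2, against at most 5 in the other 396 nuclei outside the marked set. There were 3 in sham VEGFC right (7.14% of its microglia; exact interval 1.50% to 19.5%), 1 in sham GFP right, 1 in TBI VEGFC right, 2 in TBI VEGFC left and 0 in the 2 TBI GFP libraries, where 0 of 49 and 0 of 40 allow up to 7.25% and 8.81%. These 7 gave 57.2% of the list's UMIs, and the list's share in sham VEGFC right was 0.131% with them and 0.0241% without the marked nuclei. Of the 15 listed genes, Ccl24 and Clec10a were at 0. The last marked nucleus, in sham GFP right, held 12 UMIs of T cell genes, led by Skap1. These nuclei were chosen after their counts were seen.

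RNA of other cells was otherwise low for monocytes and dendritic cells and higher for Ttr of choroid plexus. The 12 genes of monocytes and dendritic cells gave 17 UMIs in all, with Ly6c2 at 0 and at most 0.011% of UMIs in any library. Of the neutrophil list, S100a8, S100a9, Retnlg and Mmp9 were at 0, and 382 of its 384 UMIs were from Csf3r, at 602 to 727 in the 6 libraries and at most 2.03 in another class. Ttr, the transport protein of choroid plexus, was at 594, 828, 1445, 378, 532 and 597 in microglia. It was found in 46.1% of thinned microglia and 47.5% of thinned oligodendrocytes. How much of the Ttr signal is background RNA was not tested.

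Homeostatic genes took a steady share of UMIs as a list, while single genes varied more. The 22 listed genes took 1.43%, 1.36%, 1.51%, 1.27%, 1.52% and 1.31% of microglial UMIs, and 1.40% to 1.53% without the 10 nuclei. Tgfbr1, the TGF-beta type I receptor, was at 1857 to 2594, Gpr34, a lysophospholipid receptor, at 631 to 851, and Siglech, a sialic-acid lectin, at 429.8 to 833. Tmem119, a surface protein used to tell microglia from other macrophages, was low in these nuclei, at 55.2 to 110.0. Siglech was highest in TBI GFP right and Tgfbr1 in sham VEGFC right.

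Transcription factors of microglial identity were just as even as a list, while single factors varied more between libraries. Their list of 20 genes took 0.998% to 1.16% of UMIs. Mef2c was at 1793, 2686, 2514, 2183, 2611 and 2250.2, lowest in sham GFP right, and Mef2a at 1817 to 2397. Runx1 ranged from 607 to 1146 and Ikzf1, the lymphoid and myeloid factor Ikaros, from 756 to 1028. Spi1 was at 110.0 to 223, Irf8, its partner factor, at 248 to 464, and Sall1, a repressor particular to microglia among macrophages, at 172 to 319. Tcf4 was not a microglial gene by level, at 677 in microglia and 1789 in astrocytes.

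Receptor signalling through Csf1r and Trem2 took 0.952% to 1.06% of UMIs. Lyn, a Src-family kinase, was at 1084 to 1379.8, Ptprc at 817 to 1347, Dock2, a Rac activator, at 957 to 1288, and Fyb, an adaptor, at 911 to 1252. Trem2, the lipid receptor mutated in forms of dementia, was at 461, 442, 549.9, 447, 579 and 381, and its adaptor Tyrobp at 256, 313, 236, 68.8, 142 and 193. Trem2 did not separate sham from TBI libraries, while both sham libraries were above the 4 TBI libraries for Tyrobp. Tyrobp gave only 113 UMIs in all. Of 16 genes of this list tested for TBI right against sham right, 0 had an unadjusted edgeR p under 0.05. Purinergic and ion channel genes took 0.287% to 0.364%, with the ectonucleotidase Entpd1 at 349.5 to 522, P2ry6, a uridine nucleotide receptor, at 220.0 to 449, Cacna1d at 471 to 736 and the potassium channel Kcnk13 at 241 to 377.

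Genes of clearance ranged widely in level, and the most abundant members of their lists are given here. At least 30 UMIs were found for 13 of 16 complement and Fc receptor genes and 14 of 20 phagocytosis genes. Megf10, of the latter list, was at 0. C1qa, which starts the classical complement cascade with C1qb and C1qc, was at 1741, 1509, 1744, 1599, 1796 and 1407, C1qb at 405 to 833 and C1qc at 405 to 697. Itgam, the integrin CD11b, was at 292 to 487. Mertk, a receptor for dying cells, was at 1509 to 1878, Elmo1, which acts with Dock proteins in engulfment, at 1269 to 2138, and Itgb5 at 515 to 1193. Among adhesion and cytoskeletal genes Srgap2 was at 1619 to 2435, Ly86 at 1141 to 1697, Arhgap45 at 386 to 742 and Dock10 at 534 to 791; sham VEGFC right was the lowest library for each of them.

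**Figure D2:**
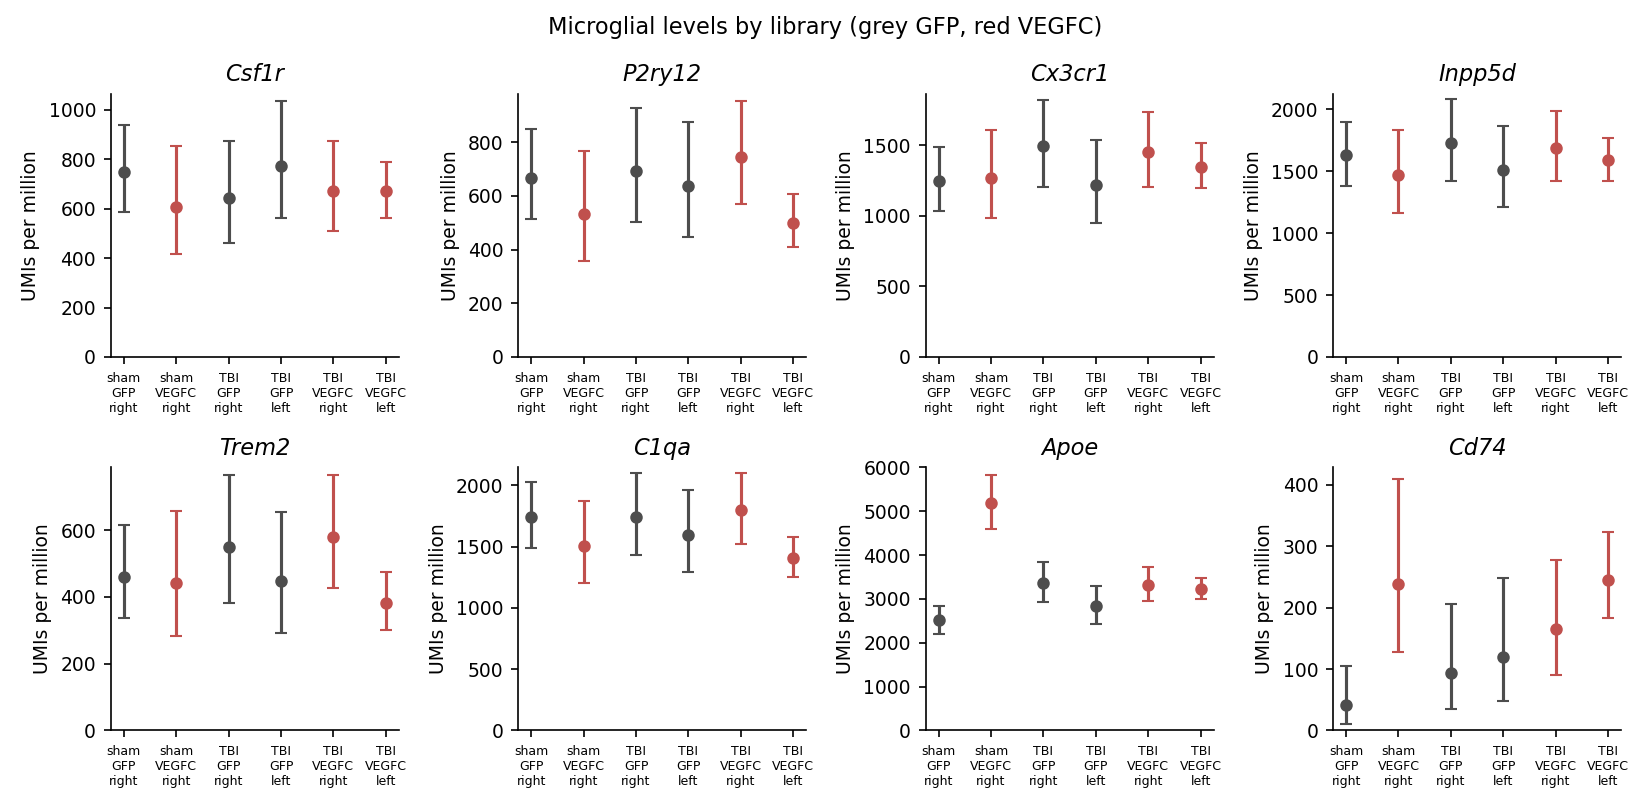
Levels of 8 genes in microglia, as UMIs per 1000000 microglial UMIs, by library, with exact Poisson 95% intervals for counting error (grey GFP, red VEGFC). The markers Csf1r, P2ry12, Cx3cr1 and Inpp5d lie close together over the libraries; Apoe is highest in sham VEGFC right, at 5188, and Cd74 lowest in sham GFP right, at 41.0.

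Disease-associated genes were led by Apoe, which other cells also express. The list took 1.02%, 1.39%, 1.11%, 0.947%, 1.10% and 1.10% of UMIs, highest in sham VEGFC right, and 1.03% to 1.38% without the 10 nuclei. Apoe, the lipid carrier, was its most abundant gene: it was at 2509.6 in sham GFP right, 5188 in sham VEGFC right, 3362 and 2836 on the right and left after TBI with GFP, and 3319 and 3233 on the right and left after TBI with VEGFC. The Poisson interval of sham VEGFC right, 4600.0 to 5830.1, did not overlap that of any other library, the next reaching 3844. Without the 10 nuclei its value was 4887. Apoe was at 5355 in astrocytes. Thinned to 1000 UMIs it was found in 79.8% of microglia, 78.6% of oligodendrocytes and 22.0% of excitatory neurons. How much of this is background RNA was not tested. By library the share of microglia was 95.2% in sham VEGFC right and 74.6% to 80.0% in the others, and the level of Apoe in microglia was above that in oligodendrocytes in 6 of 6 libraries. In oligodendrocytes too, sham VEGFC right was the highest library, at 2432 against 1702 to 2007, while in astrocytes it was at 5556 within 4815 to 5893. Excitatory neurons also had their highest Apoe level in sham VEGFC right, at 290 against 175 to 249. The part of background RNA in the microglial difference was not tested.

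Genes of the late disease-associated state gave few UMIs. Cst7, a cysteine protease inhibitor, gave 8 UMIs in 8 nuclei. Itgax, the integrin CD11c, gave 42 UMIs in 36 nuclei, Lpl, lipoprotein lipase, 39 in 28, and Spp1, osteopontin, 37 in 15. Spp1 gave 15 UMIs in TBI GFP right and 14 in TBI VEGFC left, with 0, 4, 1 and 3 in the others. A single nucleus of 2449 UMIs in TBI GFP right held 14 of all 17 UMIs of Gpnmb, a transmembrane glycoprotein of lipid-laden macrophages, with 7 of Spp1 and 23 of Apoe. Its doublet score was 0.0989, close to the highest deposited score, and its UMI count was above the microglial median of 1261; whether it is a doublet was not tested. Of cathepsins, the lysosomal proteases, Ctsd was at 911 to 1104, Ctsb at 499 to 738 and Ctss at 927 to 1321, and Cd9, a tetraspanin, at 636 to 728. Cadm1 was at 736 to 1181 in microglia against 1193 in astrocytes. The lysosome and lipid list, which holds Apoe too, took 1.73% of UMIs in sham VEGFC right and 1.29% to 1.40% in the other 5. Apoe was its most abundant gene, at 5188 in sham VEGFC right and 2509.6 to 3362 in the others. Mitf, a factor for lysosomal genes, was at 670.4 to 1141, and Abca1, a cholesterol exporter, at 512, 1159, 754, 1083, 945 and 819.

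Antigen presentation was low, with the VEGFC library above its GFP partner for Cd74 in every context. The list of 15 genes took 0.162%, 0.272%, 0.130%, 0.175%, 0.182% and 0.164% of UMIs. Cd74, the chaperone of class II molecules, was at 41.0 in sham GFP right, 239 in sham VEGFC right, 94.3 in TBI GFP right, 120.3 in TBI GFP left, 165 in TBI VEGFC right and 246 in TBI VEGFC left; these stand for 4, 13, 6, 7, 14 and 51 UMIs. The 3 GFP libraries were the 3 lowest. Its partners were at fewer UMIs, with H2-Aa at 2, 10, 1, 1, 6 and 14, H2-Ab1 at 0, 8, 0, 4, 6 and 12, and H2-Eb1 at 4, 7, 1, 7, 4 and 11. These are raw counts, and TBI VEGFC left held 207540 microglial UMIs against 58173 in TBI GFP left. Relative to those totals, H2-Ab1, H2-Eb1 and the whole list were lower in TBI VEGFC left than in TBI GFP left, and H2-Aa was higher. The 7 nuclei marked by border macrophage genes held 2 of the 95 UMIs of Cd74. Class I genes H2-K1, H2-D1 and B2m were at 260.2 to 570.3, 241 to 459.9 and 110.0 to 307, and the costimulatory receptor Cd86 at 284 to 478.

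Interferon-stimulated transcripts reached a high share in few nuclei. The list took 0.134% to 0.210% of UMIs by library, with Trim30a at 120.3 to 272, Parp14 at 188 to 258, Rnf213 at 71.7 to 295 and Sp100 at 103 to 201. In 11 nuclei (2.71%) it reached 1% of the nucleus's UMIs or more, against a median of 0.0985%: 1, 2, 0, 0, 1 and 7 by library. The 7 in TBI VEGFC left were 5.07% of its microglia (exact interval 2.06% to 10.2%), which overlaps the intervals of each other library.

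Inflammatory cytokines were hardly seen in these nuclei. Il1b gave 5 UMIs and Tnf 15, Ptgs2 and Nos2 were at 0, and of 45 UMIs of Ccl4, a chemokine, 10 lay in 1 nucleus of TBI VEGFC left. The NF-kB subunits Nfkb1 and Rel were at 327 to 423 and 51.6 to 189, the RNA sensor Tlr7 at 73.6 to 307, Tlr4 at 51.6 to 174, and the inflammasome adaptor Pycard at 142 to 331. No microglial nucleus reached 1% of UMIs from 24 cell cycle genes, where 0 of 406 allows up to 0.904% (exact interval), and 7 of those genes were at 0. Their most abundant members, Ezh2, Cenpf, Pcna, Diaph3 and Mcm3, gave 7 to 21 UMIs each.

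Microglia held little RNA for VEGFC or its receptors. Vegfc gave 1 UMI among 565995 microglial UMIs, in TBI VEGFC left, and Flt4, the main VEGFC receptor, gave 0. Kdr gave 5, and Flt1 gave 28, of which 7 were in 1 nucleus. The coreceptors Nrp1 and Nrp2 were at 215, 405, 126, 189, 213 and 207, and at 205, 221, 189, 138, 213 and 139.7. Vegfb gave 25. Of the TGF-beta pathway, Tgfbr2 was at 413 to 626, and the inhibitors Ski, Skil and Smad7 at 255 to 473, 246 to 386 and 189 to 349.5. Mouse Mapt, which encodes tau, gave 13 UMIs and Prnp, the gene whose promoter drives the transgene, was at 157 to 275. Among genes near risk loci for Alzheimer's disease, Picalm was at 688 to 974 and Frmd4a at 911 to 1375.

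**Figure D3:**
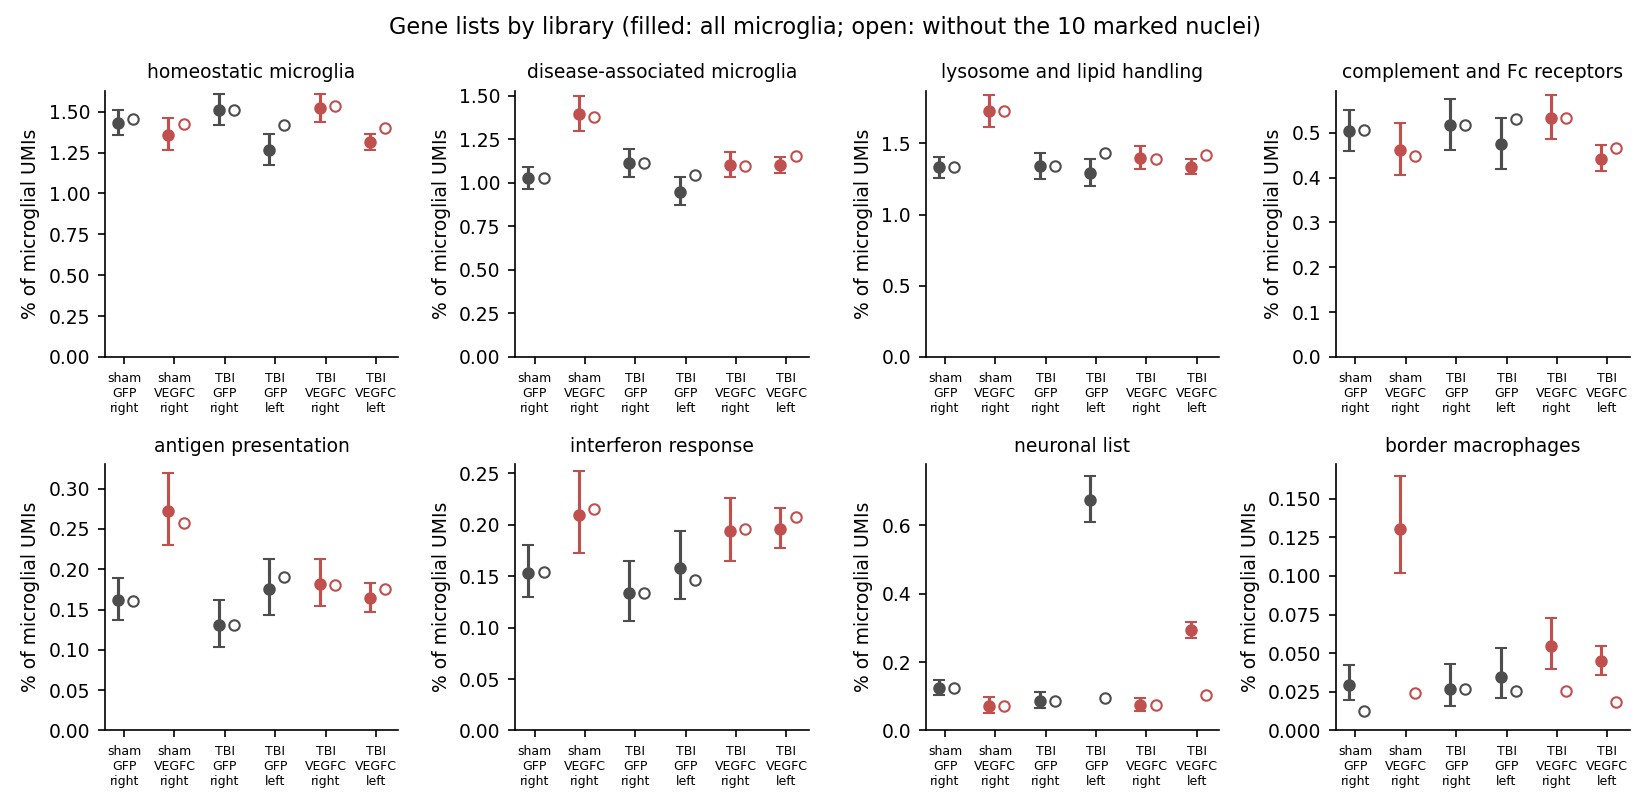
Share of microglial UMIs taken by 8 gene lists in each library (filled points with exact Poisson 95% intervals; open points without the 10 marked nuclei; grey GFP, red VEGFC). The homeostatic list lies between 1.27% and 1.52%, the disease-associated list is highest in sham VEGFC right at 1.39%, and the neuronal list in TBI GFP left is 0.674% with the marked nuclei and 0.0955% without them.

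VEGFC was compared with GFP on microglial counts summed per library, with the 3 contexts (sham right, TBI right, TBI left) as blocks. The edgeR quasi-likelihood test left 2 residual degrees of freedom. With 1 library for each combination, these measure how far the VEGFC difference varied between contexts, and no replicate libraries were available to measure spread. The p-values rest mostly on spread borrowed across genes, with a median of 40.8 prior degrees of freedom. That spread may be technical, since nothing says how many mice each library holds. Of 2093 genes tested, 0 were higher and 3 were lower at an adjusted p under 0.05 (0.143%; 123 genes at an unadjusted p under 0.05). All 3 were neuronal genes with most of their UMIs in the 10 marked nuclei. Galntl6 was found in 7 microglial nuclei, Snhg11 in 49 and Lsamp in 45. Galntl6 had 1, 1, 0, 63, 0 and 29 UMIs by library, Snhg11 3, 6, 6, 68, 6 and 42, and Lsamp, an adhesion molecule of neurons, 12, 3, 3, 53, 5 and 38. The 10 marked nuclei held 94.7%, 64.1% and 57.0% of their UMIs. No direction was shared by all 3 contexts. Without the 10 nuclei, 0 of 2122 genes passed (110 at an unadjusted p under 0.05), and none of the 3 was high enough to be tested.

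None of the 18 lists of microglial genes had a member past the threshold for VEGFC. Of disease-associated genes 15 of 18 tested were above 0, with a median log2 fold change of 0.14, beside 0.01 over all genes. Of lysosome and lipid genes 13 of 18 were above 0 (median 0.13), of antigen presentation genes 4 of 5 (0.36), and of homeostatic genes 7 of 16 (-0.03). Apoe is in the first 2 of these lists. Apoe had a log2 fold change of 0.42 ± 0.13 (SE; adjusted p = 0.326), and its level was higher with VEGFC in sham and TBI left but not in TBI right. With limma-voom its adjusted p was 0.00101, and without either sham library its log2 fold change was 0.10. Cd74 had 1.38 ± 0.40 (adjusted p = 0.246), higher in 3 of 3 contexts.

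Other genes with small p-values and the same direction in all 3 contexts did not pass. Rbpj, the DNA-binding factor of Notch signalling, was at 154, 459.9, 157, 189, 343 and 222 (log2 fold change 1.04 ± 0.29, adjusted p = 0.219). Cers6, a ceramide synthase, was at 113, 239, 110.0, 155, 236 and 318, and its 3 VEGFC libraries were the 3 highest (1.07 ± 0.30, adjusted p = 0.219). Slc1a3, a glutamate transporter, was at 359, 534, 456, 189, 614 and 612 in microglia and at 2365 to 2838 in astrocytes. Gtdc1, a glycosyltransferase-like gene, was at 543, 368, 597, 567, 284 and 328, the 3 VEGFC libraries being the 3 lowest (-0.80 ± 0.22, adjusted p = 0.219). Tnrc6c had -0.90 ± 0.27.

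**Figure D4:**
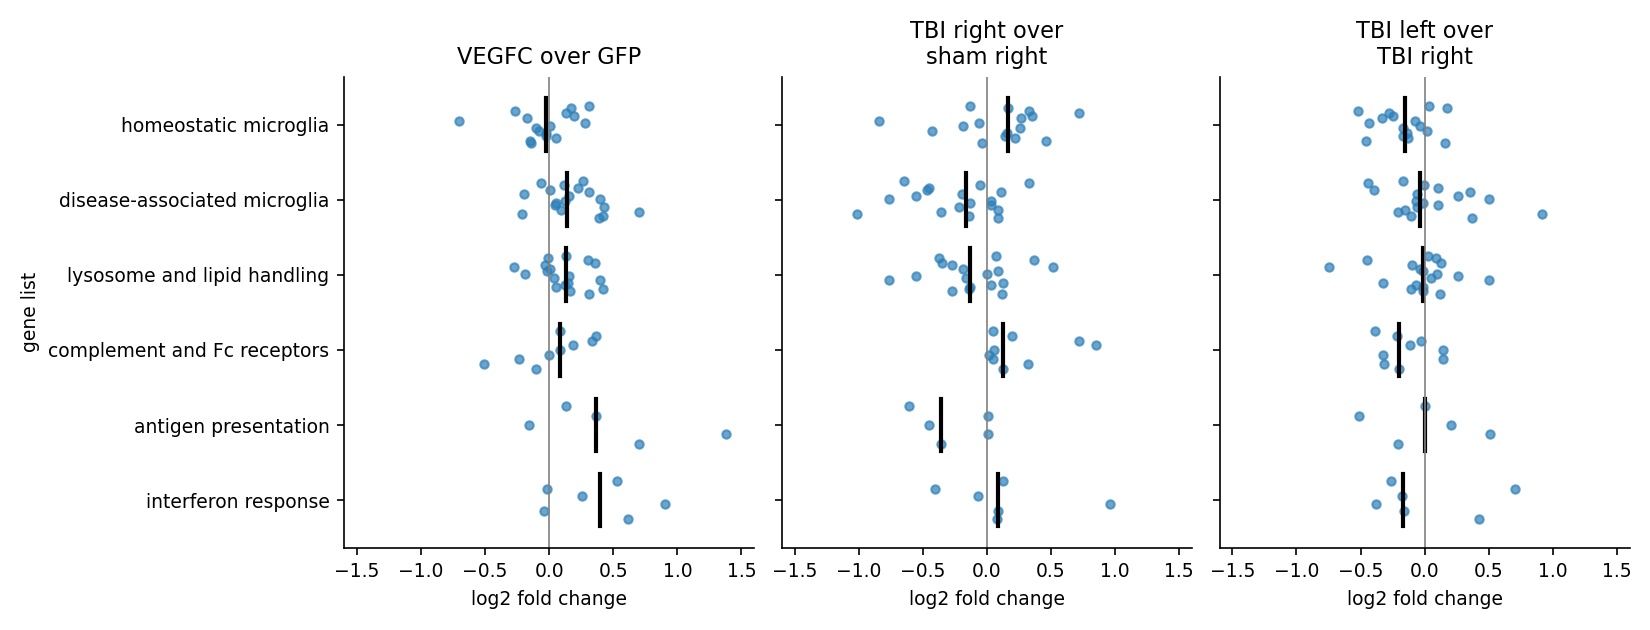
Log2 fold changes of single genes (points) in 6 gene lists with their medians (black bars), for VEGFC over GFP, TBI right over sham right, and TBI left over TBI right. The medians lie between -0.36 and 0.39, and no point passed the test.

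TBI was compared with sham in the right hippocampus, on the side of the impact. No gene passed: 0 of 2093 were higher and 0 lower (0%), with 127 at an unadjusted p under 0.05; DESeq2 and limma-voom also called 0. Homeostatic genes had 10 of 16 above 0 (median 0.16, beside 0.01 over all genes), disease-associated genes 6 of 18 (-0.17), complement and Fc receptor genes 9 of 9 (0.12), and adhesion genes 11 of 14 (0.26). Cst3, the cysteine protease inhibitor cystatin C, was at 2325, 2097, 3315, 2166, 2788 and 2072: the 2 libraries from the injured side were the highest (0.46 ± 0.15, adjusted p = 0.794). It is also abundant in astrocytes, at 2108. Elmo1 was highest in the same 2 libraries (0.49 ± 0.17, adjusted p = 0.794), as were Lamp1, a lysosomal membrane protein, at 338, 258, 439.9, 292, 413 and 217, and Tlr7, at 154, 73.6, 236, 206, 307 and 231 (1.13 ± 0.39 for Tlr7).

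Other genes with small p-values after TBI were Atp6v1b2, a subunit of the lysosomal proton pump, at 123, 55.2, 283, 258, 259.9 and 226, where the 4 TBI libraries were the 4 highest (1.50 ± 0.41, adjusted p = 0.794), and Ccnd3, a cyclin, with 0.67 ± 0.22. Tet3, which oxidises methylcytosine, and Gna15, a G protein subunit, had -1.12 ± 0.36 and -1.09 ± 0.35.

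Between the 2 sides of injured brains, 16 of 2093 genes were higher in TBI left than in TBI right and 0 were lower (0.764%; 126 at an unadjusted p under 0.05). Of these, 15 had over 25% of their UMIs in 1 nucleus, and 5 of them are in the neuronal list. They were Galntl6, Dlg2, Adgrb3, Ank3, Ptprd, Pcdh9, Adgrl3, Cacna2d1, Lrp1b, Lsamp, Dlgap1, Snhg11, Syt1, Grm5 and Rbfox1, among them receptors, scaffolds and adhesion molecules of synapses. Dlg2, a scaffold of the postsynaptic density, had 4, 1, 2, 37, 0 and 77 UMIs by library, and 87.6% of them lay in the marked nuclei. For the 15 genes that share ran from 42.9% in Rbfox1 to 94.7% in Galntl6. Both nuclei past the limit of 300 neuronal UMIs were in left libraries, 1 in each.

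**Figure D5:**
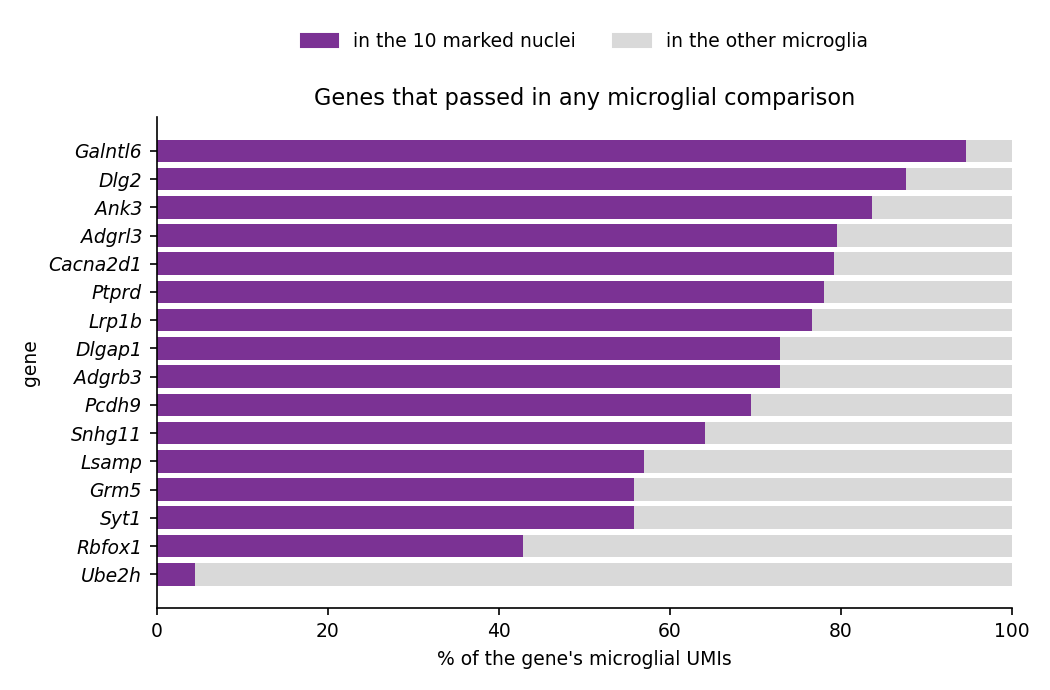
Percentage of each gene's microglial UMIs that lay in the 10 marked nuclei (purple) and in all other microglia (grey), for the 16 genes that passed in the comparison of TBI left with TBI right, 3 of which also passed for VEGFC against GFP. Galntl6 has 94.7% in the marked nuclei and Ube2h 4.46%.

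Ube2h, a ubiquitin-conjugating enzyme, was the exception. It was at 246, 129, 236, 464, 142 and 347, from 24, 7, 15, 27, 12 and 72 UMIs in 123 nuclei, and 4.46% of them lay in the marked nuclei. Its log2 fold change was 1.21 ± 0.30 (adjusted p = 0.0271), and both left libraries were above all right ones. Without the 10 nuclei, 0 of 2122 genes passed (85 at an unadjusted p under 0.05), and Ube2h had 1.22 with an adjusted p of 0.375. It passed neither with DESeq2 nor with limma-voom (adjusted p of 1.00 and 0.237), nor without any of TBI GFP right, TBI VEGFC right and TBI VEGFC left (0.635, 0.907 and 0.653).

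Genes of microglia did not pass between sides. Homeostatic genes had 4 of 16 above 0 (median -0.15, beside -0.01 over all genes), complement and Fc receptor genes 2 of 9 (-0.20), and disease-associated genes 7 of 18 (-0.04); the TBI right libraries are shared with the comparison to sham. Cst3 had -0.46 ± 0.14 (adjusted p = 0.197). In 8 of 8 other classes tested Cst3 was also lower on the left, with log2 fold changes of -0.41 to -0.07. Foxn3, a forkhead repressor, had -0.64 ± 0.18 (adjusted p = 0.0857), from 1352, 1288, 1477, 842, 1701 and 1089. Its left libraries were the 2 lowest, and Foxn3 was lower on the left in 1 of 8 other classes tested. Anapc15, of the anaphase-promoting complex, had -0.78 ± 0.25. Cacnb2, a calcium channel subunit, had 1.06 ± 0.28 (adjusted p = 0.0587), and Pde4d and Arid4a 0.95 ± 0.29 and 0.98 ± 0.33. Foxn3 passed with limma-voom (adjusted p = 0.043), and Foxn3, Cacnb2 and Cst3 did without either sham library.

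The response to VEGFC after TBI was set against that in sham with the 2 sides of TBI as replicates. No gene passed: 0 of 2776 were higher and 0 lower (0%), with 116 at an unadjusted p under 0.05, and DESeq2 and limma-voom also called 0. The smallest p belonged to Apoe, whose difference was -0.96 ± 0.26 (adjusted p = 0.62). Its level was highest in sham VEGFC right, the only library of that group. Without TBI VEGFC left its adjusted p was 0.0176. Disease-associated genes had 6 of 22 above 0 (median -0.25, beside 0.01 over all genes), antigen presentation genes 1 of 7 (-0.81), homeostatic genes 10 of 17 (0.01), and adhesion genes 10 of 14 (0.25). All 4 markers of the class were within 0.02 to 0.23.

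Of single genes in that comparison, Cdkal1, a tRNA-modifying enzyme, was at 174, 534, 534, 309, 284 and 361 (-1.95 ± 0.54, adjusted p = 0.62), and Gabpb1, an Ets-family partner, at 30.7, 221, 141, 155, 106 and 72.3. Rab8b, of vesicle transport, was at 492, 239, 329.9, 223, 662 and 414 (1.90 ± 0.55, adjusted p = 0.639). Slc12a2, an ion cotransporter, and Uggt1, of glycoprotein folding, had 0 UMIs in sham VEGFC right and levels of 31.4 to 154 elsewhere, so no fold is given for them. Lyz2, lysozyme, was at 113, 313, 204, 138, 82.7 and 86.7, highest in sham VEGFC right, the library with the most nuclei marked by border macrophage genes; their part in its level was not tested. P2ry6 and Itgb5 had 1.43 ± 0.52 and 1.22 ± 0.41.

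Counts were simulated with the spread fitted as a trend over these libraries, without a spread particular to each gene. Among 1900 genes, 100 were changed 2-fold and 100 were changed 4-fold, all with at least 60 UMIs. The test of VEGFC against GFP called 49% of the former and 83% of the latter, so at this depth many changes of 2-fold would not have been called. Genes with fewer UMIs were not changed, so these percentages do not cover them.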

How the data were processed

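Nuclear RNA was measured with the 10x Genomics 3′ kit v3.1 after Miltenyi nuclei extraction, per the labels' protocols. Cell Ranger 7.0.1, Scanpy and the build mm10 are named in the submitters' processing notes. The authors deposited raw UMI counts per nucleus and gene (26049 genes, all whole numbers) and a table of nuclei with class, total counts, the percent of mitochondrial counts and a doublet score; the deposited doublet scores and percent values were used as given, and no doublets were removed here. Counts of nuclei named microglia were summed per library (54357 to 207540 UMIs) and tested with edgeR 4.0.16 (TMM factors 0.991 to 1.02, filterByExpr, quasi-likelihood, Benjamini-Hochberg over all genes tested) in R 4.3.3, with a term for context; standard errors are the log2 fold change over the root of F. The test was run on simulated data (4 false calls). Genes were named by rule: up to 8 per direction past an adjusted p of 0.05, with at least 30 UMIs, at most 25% of them in 1 nucleus and 1 direction in all matched pairs, or else the 3 smallest p-values; the 5 most abundant members of each list; and a set of markers, VEGF receptors and disease genes. Members and gene lists were chosen with earlier results of these data known. Clec7a and Mx1 were not analysed here, and some genes the rule names are not reported here. Alternatives were RLE factors (edgeR) or library totals, no filter, DESeq2 1.42.0, limma-voom 3.58.1, subsets of nuclei, and each library left out. Promoters came from RefSeq.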

Additional observations from a re-analysis of the deposited data

Results flagged for a closer look

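The microglial share of nuclei moved one way in sham and the other way after TBI: VEGFC was below GFP in sham right, with a log2 ratio of -1.29, and above it in TBI right and TBI left, with 0.57 and 2.35. The mean after TBI exceeded the value in sham by 2.75. This difference was not tested, since each ratio comes from 1 library a group. After thinning to 1 depth the difference was 1.14, with the same signs.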

How the results depend on the processing

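For VEGFC against GFP, the 3 calls became 14 without a filter on low counts, 12 with limma-voom, 1 without the 25% of nuclei highest in neuronal RNA, and 0 with DESeq2, equal numbers of nuclei, no context term, or, chosen after seeing the data, without the 10 marked nuclei; leaving out 1 library gave 0 to 15, with 0 when TBI GFP left or TBI VEGFC left was missing. Without 1 library the log2 fold change of Snhg11 ranged from -2.28 to 0.56 and that of Galntl6 from -2.93 to 0.71, and both reversed without either left library (0.55 and 0.71 without GFP, 0.56 and 0.68 without VEGFC). For TBI left against right, the 16 calls became 38 without a filter, 1 with DESeq2, 5 with limma-voom, and 0 without the 25% of nuclei highest in neuronal RNA, with equal numbers of nuclei or without the 10 nuclei; leaving out 1 library gave 5 to 49. For TBI against sham, 0 calls held under all alternatives except without sham VEGFC right, so the range was 0 to 2. For the difference in VEGFC response, 1 gene passed without a filter, and leaving out 1 library gave 1 to 5, with no fit possible without a sham library. Where a library was left out, a lone sample was taken to vary like the others. The mean log2 share ratio of VEGFC to GFP ranged from -0.36 without either TBI left library to 1.46 without either sham library, and 0.45 to 0.90 under the other settings. The causes were not tested. A doublet score limit of 0.05 left 0 microglia in both TBI GFP libraries and 94 in TBI VEGFC left, so it gave no value. Of 665 values of single genes under alternatives, 564 kept their direction and side of the threshold, 82 lost and 15 gained significance, and 4 reversed. Of 880 medians of gene lists under alternatives, 213 moved by 0.1 or more on the log2 scale. Samples were paired by context only, since no replicate number is shared between groups.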
